A study of Mus musculus with 6 samples.

Results

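The MM9LINCRNAEXON probes are a small set of oligonucleotides on an Arraystar mouse lncRNA microarray, each named for an exon of a long intergenic noncoding RNA (lincRNA). They were chosen by name alone, as all non-control probes whose identifier begins with MM9LINCRNAEXON, which gave 75 of the 60823 probes on the array. Each identifier holds a number and a + or a -, which was read here as the strand. The set covered 65 numbers between 10101 and 12036, with 50 probes marked + and 25 marked -. For 10 numbers both strands were present, for 40 the + probe was alone and for 15 the - probe was alone. RNA came from small extracellular vesicles (sEVs) released by interscapular brown adipose tissue (sEV-BAT, 3 arrays) or by inguinal white adipose tissue (sEV-WAT, 3 arrays). All donors were untreated male C57BL/6 mice, 6 to 8 weeks of age in the labels, and each array carried RNA from vesicles pooled over several mice, so that spread between arrays is spread between pools. The vesicles of both groups were collected from the medium of minced tissue kept in culture, and thus include whatever every cell type of the depot released. No gene name is attached to any of the 75 probes. Of 22 markers of brown fat, white fat and other cell types, 0 were named among the 46 probes whose accession could be matched to a gene, so the tissue labels were not checked against markers.

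LincRNAs are transcripts from the stretches between protein-coding genes. Many are spliced and polyadenylated like mRNAs, most are present at low levels and in few tissues, and those with a known role act on chromatin, on transcription or on the fate of other RNAs. Brown adipose tissue burns fuel to make heat and white adipose tissue stores it, and both release sEVs, membrane-bound particles that carry RNA and protein to other cells. A strand-specific probe reads RNA of one strand, so a + and a - probe with the same number ask which strand of an exon is transcribed. The sequences and genome positions of these probes were not analysed here. Whether neighbouring numbers belong to one transcript is therefore unknown, and a match to an expressed gene on the opposite or the same strand could not be looked for.

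The arrays were read in 1 colour, and levels are given as log2 of the background-corrected intensity after quantile normalization. Before normalization the sEV-BAT arrays were brighter over all probes, with a median intensity of 81.3 to 92.2 against 57.1 to 58.5 on the sEV-WAT arrays, which quantile normalization removes. sEV-BAT 1 and the 3 sEV-WAT arrays lay on 1 slide and sEV-BAT 2 and 3 on another. Only sEV-BAT 1 against the 3 sEV-WAT arrays can be compared within a slide, and that difference equals the value fitted with the slide as a block. Log2 levels of all probes correlated between arrays with r of 0.976 to 0.995. Probes differ in sequence and so in how brightly they bind, and a brighter probe, on either strand, need not mark a more abundant RNA. Fewer vesicles of one kind and less RNA per vesicle cannot be told apart in such pools.

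Signal of the lincRNA exon probes covered nearly the full range of the array. Their mean log2 level over the 6 arrays ran from 1.70 to 14.64, with a median of 5.42 against 6.14 over all probes. The humanlincRNA and mouselincRNA probes, the array's larger families of lincRNA probes (1092 and 639 probes), had medians of 5.04 and 5.25. Dim probes made up a larger share of the members than of the whole array, and the share of very bright probes was near that of the whole array. Of the 75 members, 23 (30.7%) had a mean below 4, where 20.1% of all probes lay, and 8 (10.7%) had a mean of 12 or more, where 9.02% of all probes and 4.95% of the humanlincRNA probes lay. Probes marked + and - had close medians, 5.49 and 5.42.

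The brightest member was MM9LINCRNAEXON10664+, at the 98.0th percentile of all probes. Its log2 level was 15.20, 15.13 and 15.53 on sEV-BAT arrays 1 to 3 and 14.33, 13.63 and 14.00 on the sEV-WAT arrays. It was above 13 on every array, and every sEV-BAT array exceeded every sEV-WAT array. MM9LINCRNAEXON10490+ came next, at 14.19, 13.84 and 13.89 in sEV-BAT and 14.37, 14.52 and 14.59 in sEV-WAT, with the sEV-WAT arrays above the sEV-BAT arrays. MM9LINCRNAEXON10667+ read 13.61, 13.64 and 13.54 in sEV-BAT and 13.43, 13.26 and 13.26 in sEV-WAT, a narrow range with sEV-BAT above. MM9LINCRNAEXON11711+ read 12.99, 12.72 and 12.58 in sEV-BAT and 13.18, 13.66 and 13.52 in sEV-WAT, and again the groups did not overlap. The last of the 5, MM9LINCRNAEXON10569-, was at 11.87, 13.73 and 11.45 in sEV-BAT and at 13.23, 13.40 and 12.94 in sEV-WAT. It was the only one of the 5 whose groups overlapped, since sEV-BAT 2 was its highest array while the other sEV-BAT arrays were its lowest.

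Most members were detected in both kinds of vesicle. A probe was called detected where the scanner software flagged its spot as well above background. Of the 75 members, 64, 62 and 67 met this in sEV-BAT 1 to 3, as did 63, 60 and 65 in sEV-WAT 1 to 3. The mean was 64.3 ± 2.52 against 62.7 ± 2.52 (SD, n = 3 and 3), a difference of 1.67 probes that was smaller than the spread between arrays (two-sided exact permutation test, p = 0.5, where 0.1 is the smallest p possible with 3 against 3). Over all probes the share detected was 91.2% in sEV-BAT and 85.5% in sEV-WAT, and the arrays did not overlap (exact permutation p = 0.1). In total 57 members (76%) were detected on all 6 arrays, 7 on 3 to 5, 6 on 1 or 2 and 5 on none, where 81.6% of all probes were detected on all 6.

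Detection at the dim end had little margin. The array also carries 15 probes named MM9NEGATIVE, of which 7, 7 and 8 were flagged well above background in sEV-BAT 1 to 3, and 5, 4 and 5 in sEV-WAT 1 to 3. On each array the brightest of these read higher than most lincRNA exon probes. Between 20 and 26 of the 75 members exceeded it on any 1 array, and 20 did so on all 6. For the members below that level the flag separates them from the local background but not from the brightest of the MM9NEGATIVE probes.

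The 5 members detected on no array were MM9LINCRNAEXON10618+, MM9LINCRNAEXON11014+, MM9LINCRNAEXON11109+, MM9LINCRNAEXON11170+ and MM9LINCRNAEXON11170-. MM9LINCRNAEXON10627+, MM9LINCRNAEXON11210+, MM9LINCRNAEXON11661+ and MM9LINCRNAEXON11661- were each detected on 1 array of each group. MM9LINCRNAEXON11727+ was detected on 2 sEV-BAT arrays and on 0 sEV-WAT arrays, although its log2 levels of 3.08, 1.56 and 3.04 in sEV-BAT overlapped those of 3.30, 2.05 and 3.39 in sEV-WAT. The reverse split was seen for MM9LINCRNAEXON11626+, detected on 0 sEV-BAT and 2 sEV-WAT arrays, and both probes were singled out after their values were seen. MM9LINCRNAEXON11626+ read 2.65, 1.91 and 1.87 in sEV-BAT and 4.09, 3.35 and 3.76 in sEV-WAT. These levels did not overlap, but the intensities before normalization did, at 9.75, 5.56 and 8.61 in sEV-BAT and 11.98, 6.84 and 10.8 in sEV-WAT, and no fold is given. These 11 members were detected on fewer than 3 arrays and did not enter the test between groups, which left 64 members among 54451 probes tested. No member was detected on all 3 arrays of one group and on none of the other.

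Few members differed between sEV-BAT and sEV-WAT at the adjusted threshold. With p-values from limma adjusted over the 54451 probes (Benjamini-Hochberg), 2 of the 64 members were higher in sEV-BAT at an adjusted p of 0.05 or below (3.12%, against 2.8% of all probes) and 2 were lower (3.12%, against 4.81%). The 2 higher probes were MM9LINCRNAEXON10664+ and MM9LINCRNAEXON11382-, and the 2 lower ones were MM9LINCRNAEXON10101+ and MM9LINCRNAEXON11593-. By a change of at least 2-fold together with an unadjusted p of 0.05 or below, 4 members were higher (6.25%, background 1.11%) and 1 was lower (1.56%, background 1.16%). At the unadjusted p alone, 13 were higher (20.3%, background 11.5%) and 13 lower (20.3%, background 17.4%). The arrays of both groups separated without overlap for 13 members higher in sEV-BAT (20.3%, background 14.5%) and for 19 lower (29.7%, background 21.8%). The adjusted shares were near those of all probes. The other shares of the members were above the background in each direction, and whether they differed from it was not tested. These counts moved with the scaling. Without normalization, where 93.5% of all probes were higher in sEV-BAT, 36 members were higher and 0 lower at the unadjusted p. Then 37 higher and 0 lower were without overlap. With the arrays shifted to a common 75th percentile the counts were 16 and 11 at the unadjusted p, and 17 and 13 without overlap.

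More members were higher in sEV-WAT than in sEV-BAT, but not under every scaling and not with the slide as a block. The log2 difference, sEV-BAT minus sEV-WAT, was above 0 for 24 members and below 0 for 40, where 47.9% and 52.1% of all probes fell, and its median was -0.14 (range -1.30 to 1.44) against -0.02 over all probes. With the slide as a block, 33 of the 64 members were above 0, where 49.6% of all probes fell. The median was then 0.01 against -0.003 over all probes. Other scalings moved all probes together, to a median difference of 0.13 with the arrays shifted to a common 75th percentile and of 0.62 without normalization, so directions were also taken relative to that median. Relative to it, 25 members were higher and 39 lower in sEV-BAT after quantile normalization, and 31 were higher and 33 lower under either of the other scalings. Of the 12 tested members with a mean below 4, 1 was above the median of all probes after quantile normalization and 7 were under either of the other scalings. Above 0 were 1 of them after quantile normalization, 9 with the 75th percentile shift and 11 without normalization. Of all tested probes with a mean below 4, 47.3%, 88% and 98.6% were above 0 under these scalings. Of the 13 members with a mean from 8 to 12, 8 were higher and 5 lower, where 6424 of all probes were higher and 6895 lower. Of the 8 brightest, 3 were higher and 5 lower, where 2842 of all probes were higher and 2643 lower. Members marked + and - split alike, with 15 of 41 and 9 of 23 above 0.

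MM9LINCRNAEXON10664+, whose levels are given above, had the largest difference of the 4 adjusted calls. Its mean was 15.29 ± 0.21 in sEV-BAT and 13.99 ± 0.35 in sEV-WAT (SD, n = 3), a log2 difference of 1.30 (SE 0.21, limma adjusted p = 0.0344). Within the shared slide the difference was 1.21. MM9LINCRNAEXON11382- read 8.99, 8.93 and 8.72 in sEV-BAT and 7.58, 7.64 and 7.85 in sEV-WAT. All sEV-BAT arrays lay above all sEV-WAT arrays by more than the spread within either group. Its means were 8.88 ± 0.14 and 7.69 ± 0.14, a log2 difference of 1.19 (SE 0.12, limma adjusted p = 0.0332), and within the shared slide 1.30.

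Both lower calls were smaller and came from probes of middling brightness. On every array both probes read below the brightest MM9NEGATIVE probe. MM9LINCRNAEXON10101+ read 5.88, 5.84 and 5.88 in sEV-BAT and 6.54, 6.53 and 6.76 in sEV-WAT. The sEV-BAT arrays were nearly identical and all lay below the sEV-WAT arrays. The log2 difference was -0.74 (SE 0.10, limma adjusted p = 0.0332) and -0.73 within the shared slide, with -0.64 after the 75th percentile shift and -0.16 without normalization. MM9LINCRNAEXON11593-, which was named after its values were seen, read 5.14, 5.23 and 5.20 in sEV-BAT and 5.70, 5.67 and 5.57 in sEV-WAT. Again every sEV-BAT array was below every sEV-WAT array, with a log2 difference of -0.46 (SE 0.09, limma adjusted p = 0.0405), and -0.51 within the shared slide. The difference was -0.29 with the 75th percentile shift and 0.20 without normalization, where the median of all probes was itself 0.62. Before normalization the intensities of MM9LINCRNAEXON11593- were higher on every sEV-BAT array than on any sEV-WAT array. Those of MM9LINCRNAEXON10101+ overlapped between the groups.

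The 4 adjusted calls were close to the threshold, as were all calls on the array, where the lowest adjusted p of any probe was 0.033. None of the 4 passed with the slide as a block (lowest adjusted p of a member 0.363), with the replicate number as a block, in the methods' test (adjusted p = 0.0584 to 0.0792), or with any one of sEV-BAT 3, sEV-WAT 1, sEV-WAT 2 and sEV-WAT 3 left out, although the direction was the same in each of these fits. With the 75th percentile shift both lower calls were lost (limma adjusted p = 0.0559 for MM9LINCRNAEXON10101+ and 0.163 for MM9LINCRNAEXON11593-) and both higher calls held (0.0369 each). Without sEV-BAT 1 the counts were 1 higher and 1 lower, and without sEV-BAT 2 they were 3 higher and 4 lower.

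The other large increases missed the adjusted threshold, and their size moved with sEV-BAT 2. MM9LINCRNAEXON11641+ read 6.03, 7.00 and 5.44 in sEV-BAT and 5.03, 5.02 and 5.13 in sEV-WAT. The sEV-WAT arrays were tightly grouped and all sEV-BAT arrays were above them, but the log2 difference of 1.10 (SE 0.38, limma adjusted p = 0.121) was 0.67 without sEV-BAT 2 (adjusted p = 0.073). MM9LINCRNAEXON11734+ had the largest positive difference of any tested member, 1.44 (limma adjusted p = 0.232), and was named after its values were seen. It read 5.39, 7.62 and 5.26 in sEV-BAT and 5.41, 4.27 and 4.27 in sEV-WAT. The groups overlapped, and without sEV-BAT 2 the difference was 0.68. MM9LINCRNAEXON11381+, likewise named after its values were seen, read 4.86, 3.45 and 5.57 in sEV-BAT and 3.38, 2.88 and 3.54 in sEV-WAT. It was detected on all 3 sEV-BAT arrays but on 1 sEV-WAT array, so its sEV-WAT level is near background, and with normexp background correction the difference was 0.31. In this probe sEV-BAT 2 was the low array of its group, and the difference of 1.36 (limma adjusted p = 0.16) became 1.97 without it (adjusted p = 0.0348). The same array set the value of MM9LINCRNAEXON10569-, described above, whose difference of -0.84 (limma adjusted p = 0.39) became -1.52 without sEV-BAT 2 (adjusted p = 0.0345).

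MM9LINCRNAEXON11109- was the next largest increase with separate groups. It read 11.22, 11.59 and 11.90 in sEV-BAT and 10.99, 10.65 and 10.47 in sEV-WAT, a log2 difference of 0.87 that missed the threshold (SE 0.21, limma adjusted p = 0.0609). MM9LINCRNAEXON11060- read 12.40, 12.61 and 12.61 in sEV-BAT and 12.17, 12.05 and 11.90 in sEV-WAT, a difference of 0.50 (limma adjusted p = 0.0535). In both of these bright probes the lowest sEV-BAT value exceeded the highest sEV-WAT value. The same held for MM9LINCRNAEXON10888- (0.51), MM9LINCRNAEXON11561- (0.50) and MM9LINCRNAEXON11274+ (0.44), with limma adjusted p-values of 0.123, 0.103 and 0.0729.

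Among the decreases that missed the adjusted threshold, the largest fitted value was at a dim probe. MM9LINCRNAEXON11660+ read 3.32, 2.89 and 1.88 in sEV-BAT and 4.29, 3.73 and 3.96 in sEV-WAT, and it was detected on 1 sEV-BAT and all 3 sEV-WAT arrays. The groups did not overlap, but the log2 difference of -1.30 (SE 0.38, limma adjusted p = 0.0857) was -0.67 within the shared slide, -0.64 with the 75th percentile shift and -0.17 with normexp. Its intensities before normalization overlapped, at 14.4, 9.39 and 8.64 in sEV-BAT and 14.1, 9.24 and 12.4 in sEV-WAT, so its size is uncertain. MM9LINCRNAEXON10343+ read 12.18, 12.21 and 11.76 in sEV-BAT and 12.45, 13.17 and 13.08 in sEV-WAT, a difference of -0.85 (SE 0.23, limma adjusted p = 0.0738). Of this bright probe too, all sEV-WAT arrays were the higher ones. MM9LINCRNAEXON11711+ differed by -0.69 (limma adjusted p = 0.0608) and MM9LINCRNAEXON10490+ by -0.52 (limma adjusted p = 0.0623), so 2 of the 5 brightest members were higher in sEV-WAT on every array without passing the adjusted threshold. MM9LINCRNAEXON11298- (-0.60), MM9LINCRNAEXON10136+ (-0.57) and MM9LINCRNAEXON11061+ (-0.55) also had separate groups, with limma adjusted p-values of 0.0795, 0.125 and 0.0576. With the 75th percentile shift the differences of MM9LINCRNAEXON10490+, MM9LINCRNAEXON10136+ and MM9LINCRNAEXON11061+ were -0.38, -0.17 and -0.44, and without normalization they were 0.11, 0.32 and 0.045, below the 0.62 of all probes.

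The remaining members mostly differed little. Over the 57 members detected on all 6 arrays, the log2 level ranged over a median of 0.674 across the 6 arrays, and 18 of them kept within 0.5. The median SD within a group was 0.187 in sEV-BAT and 0.134 in sEV-WAT. MM9LINCRNAEXON11320+ had 1 spot flagged for uneven pixels, on sEV-WAT 2. That spot was left out, and the probe's difference of -0.08 (limma adjusted p = 0.906) rests on 5 arrays.

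The 10 strand pairs fell into clear one-strand pairs and pairs with little signal or little gap. In 7 of the 10 (70%) the same strand was brighter on all 6 arrays, compared with 86.3% of the 852 pairs of named + and - probes on the array. The + probe was the brighter in 3 pairs and the - probe in 4. The gap between the strands, taken regardless of direction, had a median of 5.60 on the log2 scale against 2.78 over all 852 pairs, 2.64 for humanlincRNA and 2.92 for mouselincRNA pairs. These gaps compare different probe sequences, so their size is a property of the probes as well as of the RNA.

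The + probe was brighter for the numbers 11711, 10664 and 11712. MM9LINCRNAEXON11711 had a mean log2 gap, + minus -, of 8.04, with 13.11 on the + and 5.07 on the - probe. MM9LINCRNAEXON10664 had a gap of 7.53, and its - probe, at 7.53, 6.51 and 7.69 in sEV-BAT and 6.63, 7.10 and 7.20 in sEV-WAT, was itself detected on every array. MM9LINCRNAEXON11712 had a gap of 4.16, again with both strands detected on all 6 arrays. In all of these the weaker strand was flagged well above background on every array. The - probe of MM9LINCRNAEXON11711 nevertheless read below the brightest MM9NEGATIVE probe on every array. Those of MM9LINCRNAEXON10664 and MM9LINCRNAEXON11712 exceeded it only on sEV-BAT 1 and sEV-BAT 3.

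The - probe was brighter for the numbers 11109, 10294, 11014 and 11382. MM9LINCRNAEXON11109 had the widest gap of the 10 pairs, -8.88, with the + probe detected on no array. MM9LINCRNAEXON11014 was alike, with a gap of -6.93 and no detection of the + probe, so that both gaps are against a signal not well above background. MM9LINCRNAEXON10294 had a gap of -8.28, with 12.68 on the - probe and 4.40 on the + probe, and MM9LINCRNAEXON11382 one of -4.26, with both strands detected on every array. The + probes of both numbers read below the brightest MM9NEGATIVE probe on every array. Of the 3 pairs without a steady stronger strand, MM9LINCRNAEXON11170 (0.23) was not detected on either strand and MM9LINCRNAEXON11661 (-0.23) was detected on 2 of 6 arrays on each. The third, MM9LINCRNAEXON11641 (0.50), was detected on both strands on all 6 arrays and is the pair in which the order of the strands followed the tissue.

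Whether the balance of the strands differed between sEV-BAT and sEV-WAT was tested on the + minus - gap of each array. A difference in probe brightness that is the same on every array cancels in that gap. Effects of normalization or background that differ between dim and bright probes do not cancel. The 6 member pairs with both strands tested were fitted with all 564 such pairs, and 0 passed the Benjamini-Hochberg threshold in limma (background 1.77% higher and 0.887% lower in sEV-BAT). At an unadjusted p of 0.05 or below there were 4, with 2 gaps higher (background 15.1%) and 2 lower (background 13.3%) in sEV-BAT. Both higher ones also passed the 2-fold criterion, as did 0 lower ones (background 6.91% higher and 3.55% lower). The arrays of the groups did not overlap for 1 higher gap (background 18.6%) and 2 lower ones (background 15.2%), and the difference was above 0 in 3 pairs and below 0 in 3 (background 51.4% and 48.6%).

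MM9LINCRNAEXON11641 showed the largest change. Its gap was 0.74, 2.13 and 0.48 in sEV-BAT and -0.26, -0.01 and -0.06 in sEV-WAT. The + probe was thus the brighter on each sEV-BAT array and the dimmer on each sEV-WAT array, though by little there. The - probe read below the brightest MM9NEGATIVE probe on every array, and the + probe exceeded it only on sEV-BAT 2. The difference between the groups was 1.23 (SE 0.43, limma adjusted p = 0.129), and 0.72 without sEV-BAT 2. Over the 11 alternatives that kept all arrays the difference ran from 0.64 to 1.23. It lay on the + strand, since the - probe read 5.28, 4.87 and 4.96 in sEV-BAT and 5.29, 5.03 and 5.19 in sEV-WAT, a difference of -0.13 (limma adjusted p = 0.58).

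MM9LINCRNAEXON11382 had the smallest p of the 6. Its gap was -4.87, -4.60 and -4.56 in sEV-BAT and -3.98, -3.62 and -3.93 in sEV-WAT, with no overlap, and the difference of -0.83 missed the threshold (SE 0.19, limma adjusted p = 0.0572). The size of this difference moved with the processing. Over the 11 alternatives that kept all arrays it ran from -1.02 to -0.46, and it passed the adjusted threshold in 2 of them. Its + probe read 4.13, 4.34 and 4.16 in sEV-BAT and 3.60, 4.02 and 3.92 in sEV-WAT, which is a difference of 0.36 (limma adjusted p = 0.152) in the same direction as the 1.19 of the - probe. After quantile normalization both probes thus read higher on every sEV-BAT array than on any sEV-WAT array, the - probe by more. The + probe was dim, with a mean of 4.03, and its difference was 0.28 within the shared slide and 0.14 with normexp.

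MM9LINCRNAEXON10664 had a gap of 7.67, 8.63 and 7.84 in sEV-BAT and of 7.70, 6.53 and 6.80 in sEV-WAT. The groups overlapped at sEV-BAT 1 and sEV-WAT 1, and the difference was 1.04 (SE 0.39, limma adjusted p = 0.143), with the - probe differing by 0.26 (limma adjusted p = 0.648). MM9LINCRNAEXON11711 had a gap of 7.78, 7.72 and 7.84 in sEV-BAT and of 8.08, 8.69 and 8.15 in sEV-WAT. The sEV-BAT values were the lower throughout, by -0.53 (SE 0.21, limma adjusted p = 0.166). MM9LINCRNAEXON11712 and MM9LINCRNAEXON10294 overlapped between the groups, with differences of 0.26 (SE 0.29) and -0.11 (SE 0.25).

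Some numbers in the identifiers follow each other directly, and some of these neighbours went the same way while others did not. MM9LINCRNAEXON11381+ (1.36) and MM9LINCRNAEXON11382- (1.19) were both higher in sEV-BAT, the former with overlapping groups. MM9LINCRNAEXON11060- (0.50) and MM9LINCRNAEXON11061+ (-0.55) lay on opposite sides with no overlap in either. In the run of 3 numbers from 11710, the + probes MM9LINCRNAEXON11710+, MM9LINCRNAEXON11711+ and MM9LINCRNAEXON11712+ differed by -0.43, -0.69 and 0.22, and their mean levels were 3.23, 13.11 and 11.04. MM9LINCRNAEXON11939- (0.28, mean 11.16) and MM9LINCRNAEXON11940+ (-0.15, mean 4.34) differed in level and in sign. None of these differences but that of MM9LINCRNAEXON11382- passed the adjusted threshold in limma.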

How the data were processed

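Total RNA of sEVs from brown and white adipose tissue (3 arrays each) was labelled with Cy3 and hybridised to 1-colour arrays by the authors. The deposited scanner files hold background-corrected intensity values and spot flags from Agilent Feature Extraction 11.0.1.1. The deposited table holds log2 values that the authors made by quantile normalization in GeneSpring GX, and it was used as an alternative. Here log2 processed intensity was quantile normalized over the non-control probes, with outlier spots left out. The test between sEV-BAT and sEV-WAT used lmFit and eBayes of limma 3.58.1 in R 4.3.3. It took probes flagged well above background on 3 or more arrays and adjusted p-values over all of them by Benjamini-Hochberg, with a threshold of 0.05. Strand gaps were tested alike over all pairs. The scripts were tested on simulated data. The number of arrays limits the precision.

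Members, lists and tests were chosen with earlier results of these data known. Individual probes were named where they had the 8 largest increases or decreases at an unadjusted p of 0.05 or below with separate groups and detection on all arrays of the higher group, the 5 highest mean levels, detection in one group alone, or the widest or most changed strand gaps, together with their strand partners. MM9LINCRNAEXON10664 was also on the list because an earlier report of these data had named it. Alternatives were no normalization, a shift to the 75th percentile, normexp with an offset of 50, the deposited log2 table, other filters, outlier spots kept, slide or replicate number as a block, an intensity trend, the methods' t-test, the looser detection flag and each array left out.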

Additional observations from a re-analysis of the deposited data

How the results depend on the processing

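In the fit reported, 2 members were higher and 2 lower in sEV-BAT at the adjusted threshold, 4 higher and 1 lower by 2-fold and unadjusted p, and among strand pairs 0 and 2 passed the same criteria. These small counts moved with most settings, and the cause was not tested. At the adjusted threshold, members higher and lower numbered 32 and 0 without normalization, 7 and 7 with normexp, 4 and 5 when detection on all 6 arrays was required, 6 and 7 with an intensity trend, and 0 and 0 with the slide as a block or with the methods' t-test. The 75th percentile shift gave 0 lower and no filter on dim probes gave 1 lower. With each array left out, 0 to 3 were higher and 0 to 4 lower. By 2-fold and unadjusted p, 12 were higher and 0 lower without normalization, 1 and 0 with normexp, 2 and 0 with the slide as a block, 2 higher with the methods' t-test, 0 lower with the 75th percentile shift or with detection on all 6 arrays, 2 lower with no filter, and 2 to 3 higher and 0 to 2 lower with each array left out. Adjusted strand pairs numbered 2 with normexp and 1 with detection on all 6 arrays. By 2-fold, 1 passed with normexp, 1 with the slide as a block, 0 with the methods' t-test, and 0 to 2 with each array left out. Without normalization, which moved the median difference of all probes to 0.62, signs reversed for MM9LINCRNAEXON10136+ (0.32), MM9LINCRNAEXON11061+ (0.045), MM9LINCRNAEXON10490+ (0.11), MM9LINCRNAEXON11014- (0.11) and MM9LINCRNAEXON11593- (0.20). The authors divided the mice into groups and describe RNA of both kinds of vesicle by group, so brown and white pools may share mice. Whether pools of the same number do is not stated, and the fit reported does not use such a pairing. Log2 levels of all probes correlated between same-numbered brown and white arrays with r of 0.986, 0.981 and 0.979. Other pairs of a brown and a white array gave 0.976 to 0.989, so these values do not settle the pairing. With the replicate number as a block, 0 members were higher and 0 lower at the adjusted threshold, and 1 strand pair passed by 2-fold. Counts of pairs brighter on one strand were 3 and 4 under every setting, and the difference in detection ranged from 0.333 to 2.83 probes with each array left out.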

Other observations

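The spot of MM9LINCRNAEXON11320+ that was left out on sEV-WAT 2 had an intensity of 96.1, against 6.27 and 14.4 on the other sEV-WAT arrays and 11.3 to 24.1 on the sEV-BAT arrays.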
